A study of Mus musculus with 6 samples.

Results

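The receptors for granulocyte-macrophage colony-stimulating factor (GM-CSF) and interleukin 3 are represented in these data by 4 genes, Csf2rb, Csf2rb2, Csf2ra and Il3ra. They were taken by symbol from the 23366 genes of the deposited tables, and all 4 passed the filter on low counts, as did 15075 genes in all. They were chosen because earlier work on the same libraries had shown the beta chains to be high in the knockouts, so the difference between the groups is given for them as a description, without a test. Whole mouse embryos at E10.5, a stage of organ formation, were compared by sequencing of polyadenylated RNA, with 1 library per embryo and 3 embryos per group. Control embryos carried a floxed and a wild-type allele of both H3f3a and H3f3b, the genes of histone variant H3.3 (H3f3a fl/+; H3f3b fl/+), and knockout embryos a floxed and a null allele of both (H3f3a fl/-; H3f3b fl/-). Both groups carried the Sox2-Cre transgene (Tg/0), in which Sox2 sequences drive Cre recombinase in the epiblast, and both lacked Trp53 (Trp53-/-), and their strain was mixed (C57BL/6, CD1, 129). Floxed alleles of the controls were therefore open to recombination as well. The labels name no litter, so p-values measure the spread between these embryos only.

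Receptors of this family pair an alpha chain, which binds a single cytokine, with a beta chain that carries the signal into the cell. Csf2rb encodes the common beta chain of the GM-CSF, interleukin 3 and interleukin 5 receptors, and Csf2rb2, found in the mouse beside it, encodes a beta chain used for interleukin 3 alone. Csf2ra and Il3ra encode the alpha chains for GM-CSF and interleukin 3. The assembled receptors act through the kinase JAK2 and the transcription factor STAT5, and are known mainly from myeloid cells: progenitors, macrophages, mast cells, granulocytes and dendritic cells.

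Because the beta chain genes are near-identical, their sequences decide which reads could be assigned to either of them. In the GENCODE M21 annotation (GRCm38, while the deposited counts rest on mm9) the genes lie next to each other on chromosome 15 on opposite strands, with Csf2rb on the plus strand. The coding sequence of Csf2rb has 2691 bases and that of Csf2rb2 2637. In a global alignment 2505 positions were identical, 126 were mismatched and 66 bases lay in gaps, an identity of 95.2% outside gaps. The 120 bases without a gap that differ most start at coding base 309 of Csf2rb and 312 of Csf2rb2, with 22 differences, shown here in capitals because reads from such places tell the genes apart.
Csf2rb: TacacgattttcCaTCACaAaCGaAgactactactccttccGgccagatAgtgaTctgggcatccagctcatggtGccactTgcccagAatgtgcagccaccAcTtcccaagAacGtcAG
Csf2rb2: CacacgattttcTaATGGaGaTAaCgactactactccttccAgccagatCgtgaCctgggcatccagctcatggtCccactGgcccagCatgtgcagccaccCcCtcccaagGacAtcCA
By contrast, 120 bases from coding base 2083 of both genes open an identical run of 242 bases, the longest in the alignment, which another of 221 bases nearly adjoins. They are shown because no read that falls wholly inside can be placed in either gene.
Both genes: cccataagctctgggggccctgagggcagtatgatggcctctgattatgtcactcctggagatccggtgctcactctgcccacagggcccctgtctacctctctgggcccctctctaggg

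**Figure D1:**
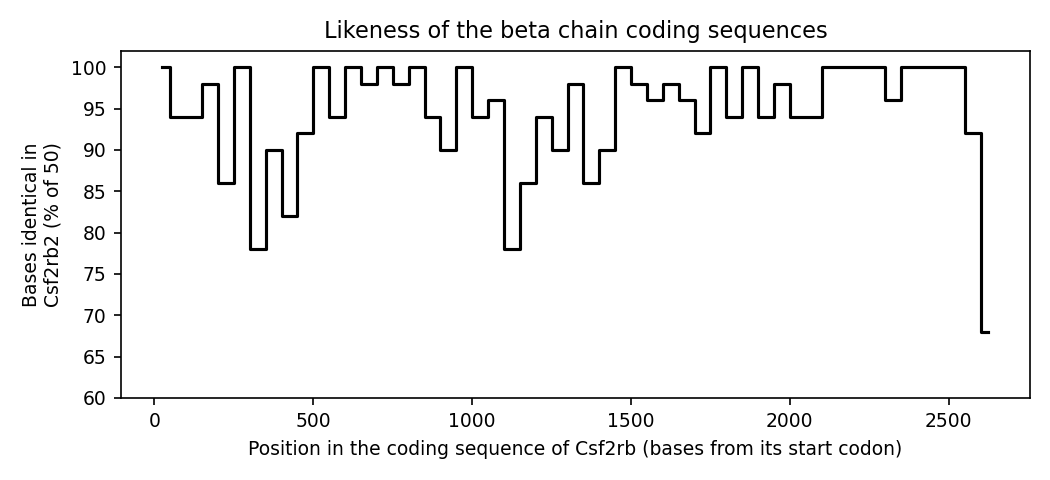
Share of bases of the Csf2rb coding sequence that are identical in the aligned Csf2rb2 coding sequence, in steps of 50 bases from the start codon; gaps count as differences. Likeness was lowest, at 68.0%, in the last step, and several steps in the last part of the coding sequence held no difference.

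Of the 50-base stretches in the Csf2rb transcript, 18.4% also occurred in the Csf2rb2 transcript, and of those in the Csf2rb2 transcript 19.0% occurred in that of Csf2rb. The remaining 81.6% and 81.0% were not shared between them. The deposited counts left out alignments that were not unique, so counts of both genes stand mostly for these unshared parts. Both genes lose a like portion of their transcript in this way. The read length is not given in the sources used here, and longer reads would share less.

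All 4 receptor chain genes were higher in every knockout embryo than in any control embryo, the beta chains by more than the alpha chains. In mean CPM (counts scaled to library size) Csf2rb stood 4.75-fold and Csf2rb2 8.94-fold higher, and Csf2ra 2.03-fold and Il3ra 1.85-fold. Of all tested genes, 11.8% had every knockout above every control. This order restates the contrast from which the genes were chosen.

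Csf2rb, the common beta chain, gave 103, 103 and 146 counts in controls 1 to 3, which is 3.53, 3.50 and 5.16 CPM. The knockouts 1 to 3 gave 484, 418 and 693 counts, or 18.6, 15.4 and 23.8 CPM. The lowest knockout, knockout 2, stood well above the highest control, control 3. The group means were 4.06 ± 0.948 CPM in controls and 19.3 ± 4.21 CPM in knockouts (SD, n = 3), and the log2 fold change was 2.25 ± 0.21 (SE).

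Csf2rb2, the beta chain for interleukin 3, gave few counts in the controls, with 22, 17 and 31, or 0.754, 0.578 and 1.10 CPM. In the knockouts there were 145, 142 and 317 counts, or 5.58, 5.24 and 10.9 CPM. Knockouts 1 and 2 were alike and knockout 3 was clearly the highest. The means of 0.809 ± 0.263 and 7.23 ± 3.16 CPM (SD, n = 3) gave a log2 fold change of 3.16 ± 0.36 (SE). This was the 5th highest of the 15075 tested genes, with Csf2rb at place 17, Csf2ra at place 266 and Il3ra at place 377. These places rest on the contrast from which the genes were chosen.

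Summing the beta chain genes gives a value that does not depend on how reads were divided between them. The sum was 4.29, 4.08 and 6.25 CPM for controls 1 to 3 and 24.2, 20.7 and 34.6 CPM for knockouts 1 to 3. The groups did not overlap, with knockout 3 the highest and knockout 2 the lowest of its group. Means were 4.87 ± 1.20 and 26.5 ± 7.26 CPM (SD, n = 3), 5.44-fold apart, and the log2 fold change was 2.45 ± 0.23 (SE). With any 1 library left out it lay between 2.21 and 2.67.

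**Figure D2:**
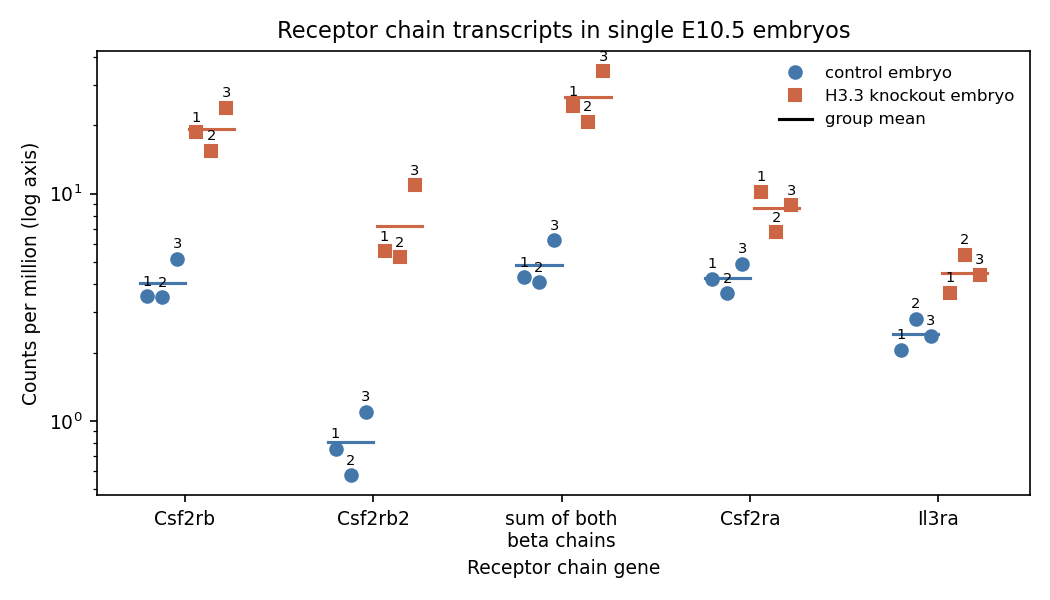
CPM on a log axis for the receptor chain genes and for the sum of both beta chains; circles are control embryos, squares knockout embryos, numbers the embryo and lines the group means. For every gene the 3 knockouts lie above the 3 controls, with the widest gap for Csf2rb2 (highest control 1.10, lowest knockout 5.24).

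Csf2rb2 also took a larger share of the beta chain counts in the knockouts. Its share was 17.6% of 125 counts in control 1 (95% exact Clopper-Pearson interval 11.4 to 25.4), 14.2% of 120 in control 2 (8.5 to 21.7) and 17.5% of 177 in control 3 (12.2 to 23.9). In knockout 1 it was 23.1% of 629 (19.8 to 26.5), in knockout 2 25.4% of 560 (21.8 to 29.2) and in knockout 3 31.4% of 1010 (28.5 to 34.3). Every knockout share lay above every control share, and the interval of knockout 3 lay above all those of the controls. That of knockout 2 lay above the interval of control 2 by a narrow margin and overlapped those of controls 1 and 3, and that of knockout 1 overlapped all 3. The means were 16.4% ± 2.0 and 26.6% ± 4.3 (SD, n = 3). The intervals cover counting error only. Il3ra and Csf2ra share no 50-base stretch with another gene in the annotation, so this question does not arise for them.

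**Figure D3:**
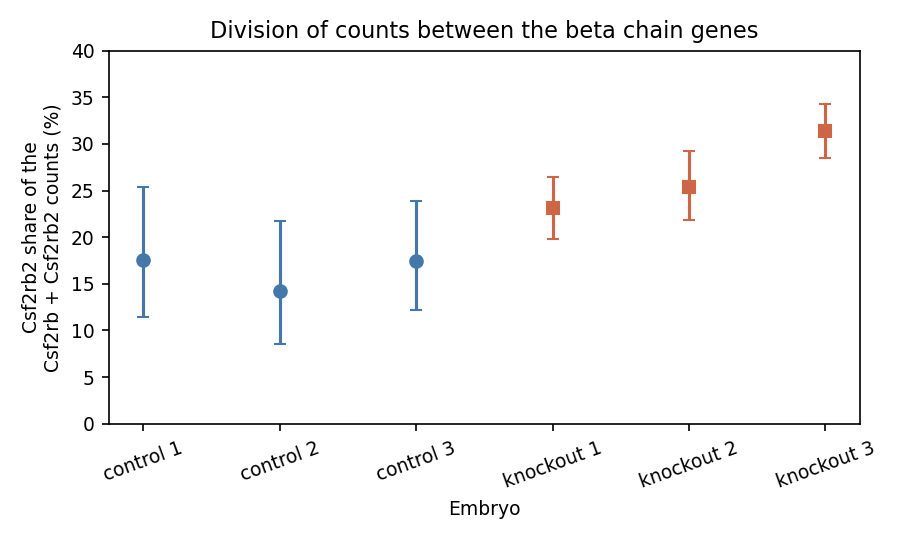
Csf2rb2 counts as a percentage of the summed Csf2rb and Csf2rb2 counts in each embryo, with 95% exact Clopper-Pearson intervals. Controls lie between 14.2% and 17.6% and knockouts between 23.1% and 31.4%.

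Csf2ra, the alpha chain that binds GM-CSF, gave 123, 107 and 139 counts in the controls, or 4.22, 3.64 and 4.91 CPM. The knockouts had 266, 183 and 259 counts, or 10.2, 6.76 and 8.89 CPM. Knockout 2 was the lowest of its group and still above control 3, the highest control. The means of 4.26 ± 0.637 and 8.63 ± 1.76 CPM (SD, n = 3) gave a log2 fold change of 1.02 ± 0.19 (SE).

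Il3ra, the alpha chain that binds interleukin 3, gave 60, 83 and 67 counts in the controls, or 2.06, 2.82 and 2.37 CPM. The knockouts had 95, 146 and 128 counts, or 3.66, 5.39 and 4.39 CPM. Here the order of the knockouts was turned round, with knockout 2 the highest and knockout 1 the lowest. The means of 2.42 ± 0.385 and 4.48 ± 0.869 CPM (SD, n = 3) gave a log2 fold change of 0.89 ± 0.21 (SE).

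The balance of beta to alpha chain transcripts differed between the embryos of the groups. The ratio of summed beta chain CPM to Csf2ra CPM was 1.02, 1.12 and 1.27 for controls 1 to 3 and 2.36, 3.06 and 3.90 for knockouts 1 to 3, so the groups did not overlap. Against Il3ra the ratio was 2.08, 1.45 and 2.64 against 6.62, 3.84 and 7.89, also without overlap. The ratio of the alpha chains, Csf2ra to Il3ra, overlapped between groups, at 2.05, 1.29 and 2.07 against 2.80, 1.25 and 2.02. The size of these ratios depends on transcript lengths, which are the same in both groups.

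Levels per length put the genes in another order. In CPM per kilobase of the annotated transcript, controls had a mean of 2.30 for Csf2ra (range 1.97 to 2.66), 1.04 for Il3ra (0.890 to 1.22), 0.828 for Csf2rb (0.714 to 1.05) and 0.171 for Csf2rb2 (0.122 to 0.232). Il3ra and Csf2rb overlapped, and Csf2ra and Csf2rb2 stood apart from them at the ends. In the knockouts the means per kilobase were 4.66 for Csf2ra (3.66 to 5.52), 3.93 for Csf2rb (3.14 to 4.86), 1.94 for Il3ra (1.58 to 2.33) and 1.53 for Csf2rb2 (1.11 to 2.30). There Csf2ra and Csf2rb overlapped, as did Il3ra and Csf2rb2. Divided by the length of the unshared 50-base stretches alone, Csf2rb had a mean of 1.03 (0.884 to 1.30) in controls and 4.87 (3.89 to 6.01) in knockouts, and Csf2rb2 of 0.213 (0.152 to 0.290) and 1.91 (1.38 to 2.87). On that scale the mean of Csf2rb in the knockouts was above that of Csf2ra, while their ranges still overlapped, and in the controls Csf2rb and Il3ra had nearly the same mean.

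The embryos also differed in the share of alignments that lay outside genes, which was 9.79% to 13.1% in the controls, 10.6% in knockout 2, and 18.3% and 18.0% in knockouts 1 and 3. Within each group the summed beta chains were highest in an embryo with a high share (control 3 at 13.1%, knockout 3 at 18.0%), while Il3ra was highest in knockout 2. In knockout 2, whose share lay within the range of the controls, the summed beta chains stood at 20.7 CPM, the lowest of the knockouts. The highest control, control 3 at 6.25 CPM, had the highest share of its group. The part of this share in the results was not tested as a term of a model, and 1 embryo cannot decide it.

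The promoters of the members were compared because the genes were high in the same embryos. RefSeq promoters (GRCm38.p6), reaching from 250 bases before to 50 bases after the start site, were found for 3 of the 4 genes by symbol: Csf2rb2, Csf2ra and Il3ra. The motifs searched on both strands were AGGAAG, the core bound by ETS factors such as PU.1, GATAAG, bound by GATA factors, and TTCNNNGAA, bound by STAT factors including STAT5. Of the 32851 promoters in the table, 35.4% held AGGAAG, 7.4% held GATAAG and 8.3% held TTCNNNGAA. The 170 bases before the start sites of Csf2rb2 (chr15:78305722-78305891, minus strand) and Csf2ra (chr19:61228419-61228588, minus strand) are shown 5′ to 3′ with matches in capitals, since they hold all but 1 of the matches of these genes.
Csf2rb2: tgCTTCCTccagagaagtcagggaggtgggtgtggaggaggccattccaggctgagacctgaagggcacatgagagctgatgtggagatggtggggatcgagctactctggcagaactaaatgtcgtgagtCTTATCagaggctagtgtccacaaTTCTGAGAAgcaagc
Csf2ra: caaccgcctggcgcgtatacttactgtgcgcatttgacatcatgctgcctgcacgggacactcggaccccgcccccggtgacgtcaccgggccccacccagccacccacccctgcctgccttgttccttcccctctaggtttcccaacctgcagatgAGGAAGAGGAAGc
The Csf2rb2 promoter held all 3 motifs, with matches to AGGAAG at -168 and 29 from the start site, to GATAAG at -39 and to TTCNNNGAA at -15. That of Csf2ra held AGGAAG at -13 and -7, and that of Il3ra held it at -140. The motifs did not overlap one another. The promoters also differed in CpG dinucleotides, with 3 in Csf2rb2, 23 in Csf2ra and 35 in Il3ra, where the median over all promoters was 7. A match describes the sequence only.

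The ligands of these receptors were at or near the limit of detection. Csf2, which encodes GM-CSF, and Il3 had 0 counts in all 6 libraries, which allows up to 0.102 to 0.116 CPM per library at 3 counts. Il5 had 1 count in control 1, 1 in knockout 1 and none elsewhere. Il5ra, the alpha chain for interleukin 5, gave 9, 13 and 11 counts in control embryos and 19, 6 and 20 in knockout embryos. Its groups overlapped, and its log2 fold change was 0.52 ± 0.46 (SE) with an edgeR adjusted p of 0.55.

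Downstream of the receptors few genes passed the edgeR test, and those that did fell. The pathway list outside the 4 members held 48 genes (ligands, Il5ra, kinases, STATs and adaptors, negative regulators, and STAT5 and survival targets), of which 44 were tested. By edgeR at an adjusted p under 0.05, 2 of the 44 were lower and 0 higher, against 0.955% and 0.551% of all tested genes. Unadjusted, 10 had a p under 0.05, a share close to the 19.2% of all tested genes (2896) with such a p, and DESeq2 called 3 lower and 1 higher. No gene was called lower without control 1 or control 3, and only Vav1 without control 2 or knockout 3. The median log2 fold change of the 44 was -0.02, and that of all tested genes -0.001. Every knockout stood above every control for 7 of the 44 (against 11.8% of all tested genes), and below for 13. Of those 13, 8 were among the 20 kinases, STATs and adaptors and 3 among the 10 negative regulators. The share of all tested genes with every knockout below was not counted, here or for the lists that follow.

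Among the 20 kinases, STATs and adaptors, Vav1, an exchange factor used mainly by blood cells, fell from 2.32 ± 0.754 to 0.481 ± 0.196 CPM (SD, n = 3). Its log2 fold change was -2.25 ± 0.37 (SE) with an edgeR adjusted p of 0.0232. It was not called when control 1 or control 3 was left out (adjusted p by edgeR at most 0.128). Pik3cg, a leukocyte form of phosphoinositide 3-kinase, had a log2 fold change of -0.86 (edgeR adjusted p 0.0599). Pik3cg was called lower by DESeq2, and by edgeR without a filter, with the replicate block, without knockout 2 and with knockouts 2 and 3 summed. Jak2, the kinase bound to the beta chain, had 52.0 ± 0.497 and 48.0 ± 1.08 CPM (SD, n = 3), with a log2 fold change of -0.12. Stat5a was at -0.26 and Stat5b at 0.25, and neither passed the edgeR test. Pik3cg, Jak2, Stat5a and Stat5b were chosen after their values were seen, the last 3 as central members of the pathway.

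Of the 10 negative regulators, Ptpn6, the phosphatase SHP-1 of blood cells, fell from 5.58 ± 0.357 to 2.64 ± 0.376 CPM (SD, n = 3). Its log2 fold change was -1.08 ± 0.17 (SE) and its edgeR adjusted p 0.0169. It was not called when any single control or knockout 3 was left out (adjusted p by edgeR at most 0.0949). Cish, a feedback inhibitor induced by STAT5 that was chosen after its value was seen, was at 0.31 and was not called by edgeR or DESeq2. Of the 13 tested STAT5 and survival targets none was called by edgeR and 4 had an unadjusted p under 0.05 (against 19.2% of all tested genes). Their median log2 fold change was 0.24, and 9 of the 13 were above 0. Every knockout stood above every control for 5 of them (against 11.8% of all tested genes), and below for 2 (share of all tested genes not counted). The immediate early gene Egr1 at 0.68 was called by DESeq2 alone, and in edgeR when knockout 2 was left out. The kinase gene Pim1, a target of STAT5, had a log2 fold change of 0.41 and an edgeR adjusted p of 0.132.

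Among other cytokine receptors none was called higher by edgeR with all 6 libraries. Of 30 listed 24 were tested, and 3 were lower and 0 higher by edgeR, while 11 had an unadjusted p under 0.05 (against 19.2% of all tested genes) and DESeq2 called 2 higher and 4 lower. The median log2 fold change was 0.01. Of the 24, 3 had every knockout above every control (against 11.8% of all tested genes). Every knockout was below every control for 7, with no share counted over all tested genes. Crlf2, 1 of those 3 and named after its value was seen, was at 0.97 ± 0.22 (SE) with an edgeR adjusted p of 0.0777. That is near the values of Csf2ra (1.02) and Il3ra (0.89). Csf1r, the macrophage receptor for colony stimulating factor 1, was at -6.05 ± 0.29 (SE), Il6ra, the interleukin 6 receptor, at -2.58 ± 0.32, and Csf3r, the granulocyte colony-stimulating factor receptor, at -1.46 ± 0.26. Their edgeR adjusted p-values were 1.54e-05, 0.00604 and 0.0325. The call of Csf3r was lost in 5 of the 6 fits that left out a library, and was kept only without knockout 2. That the members differ from these receptors was not tested, since the members were chosen with their values known.

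**Figure D4:**
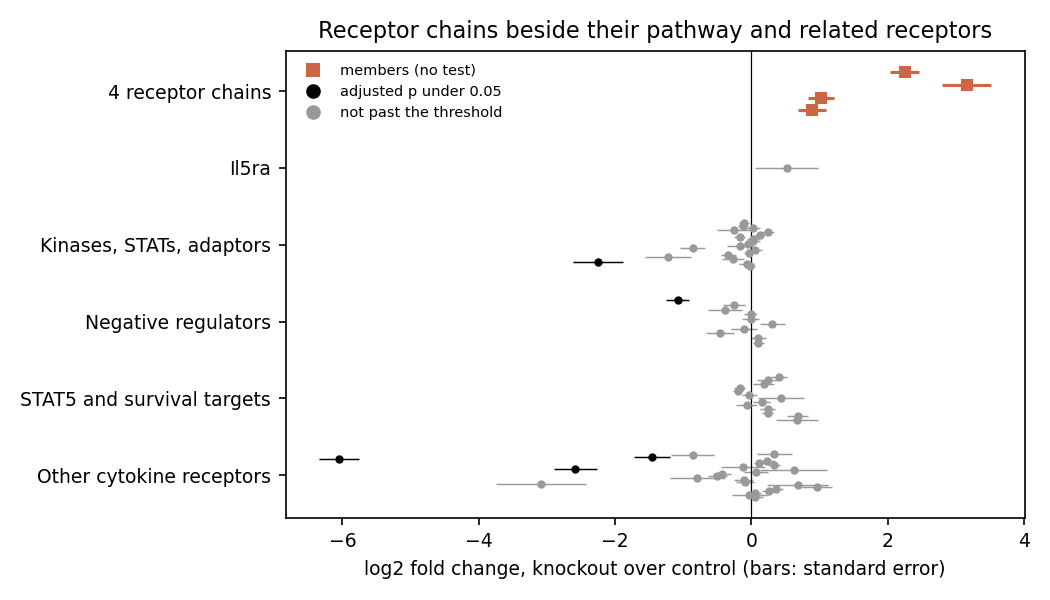
log2 fold change of knockout over control with its standard error for the 4 receptor chains (squares, from top to bottom Csf2rb, Csf2rb2, Csf2ra, Il3ra), and for the tested genes of the pathway and of other cytokine receptors (circles, black where the edgeR adjusted p was under 0.05). The receptor chains lie between 0.89 and 3.16, and the 5 black circles all lie below 0.

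The beta chains stood high in embryos with very low levels of most macrophage transcripts. Of the 19 macrophage markers in the files 18 were tested, 16 were lower and 0 higher by edgeR, 17 were lower by DESeq2, and the median log2 fold change was -5.47. This decrease was known from earlier work on these libraries. The summed markers gave 89.0 to 107 CPM in controls and 7.31 to 8.13 CPM in knockouts, with the groups far apart. Cx3cr1, a chemokine receptor gene of macrophages and microglia, gave 245, 238 and 248 counts in controls and 3, 1 and 2 in knockouts, a log2 fold change of -6.76. F13a1, which encodes a chain of coagulation factor XIII, was at -5.08 and Mpeg1, a perforin-like gene of macrophages, at -6.50. The edgeR adjusted p-values of Cx3cr1, F13a1 and Mpeg1 were 7.51e-06, 1.52e-05 and 2.69e-05. The complement genes C1qb and C1qc, named after their values were seen, had 0 counts in every knockout and 85 to 179 in the controls. Not every marker fell: Cd68 and Cd163 are also named after their values were seen. Cd68 was at -0.06 ± 0.44 (SE) and overlapped between groups. Cd163, under the filter, had 5, 2 and 3 counts in controls and 10, 6 and 12 in knockouts.

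Markers of granulocyte and monocyte progenitors summed to 13.3 to 16.9 CPM in controls and 5.32 to 6.89 CPM in knockouts, and 2 of 4 tested genes were called lower by edgeR and by DESeq2. Ctsg and Ly6c2 had 0 counts in all 6 libraries, and Elane had 1, 1 and 3 counts in controls and 0 in every knockout. The called genes were Csf3r and Mpo, the myeloperoxidase gene, which fell by 2.26 on the log2 scale with an edgeR adjusted p of 0.0138. Mpo was not called when any single control or knockout 3 was left out (adjusted p by edgeR at most 0.0776).

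Markers of mast cells, basophils and eosinophils overlapped between the groups in their sum. They summed to 12.2 to 18.0 CPM in controls and 11.6 to 13.5 CPM in knockouts. Most of this was Gata2, which progenitors and endothelium use too, at 9.89 to 14.1 CPM in controls and 10.2 to 11.7 CPM in knockouts. The sum therefore mostly follows Gata2. Cma1, Fcer1a, Mcpt8 and Tpsab1 had 0 counts in all 6 libraries. Under the filter, Epx, an eosinophil gene, had 19, 1 and 20 counts in controls and 0 in every knockout. Prg2 had 16, 3 and 49 against 2, 2 and 1, and Prss34 3, 3 and 4 against 0, 0 and 1. Ms4a2, also under the filter, overlapped, at 8, 12 and 7 against 3, 13 and 9. Epx, Prg2, Prss34 and Ms4a2 were named after their values were seen. Of the 3 tested members none was called by edgeR or DESeq2 and none had an unadjusted p under 0.05. The nearest to it were Srgn at a log2 fold change of -0.68 and Hdc at -0.86. Endothelial markers summed to 520 to 545 CPM in controls and 571 to 761 CPM in knockouts. By edgeR 1 of 20 was higher (Kdr, at 0.44) and 1 lower (Lyve1, at -2.34). The median was 0.28, and 17 of the 20 were above 0. DESeq2 called 5 higher and 1 lower, and 10 of the 20 had an unadjusted p under 0.05 (against 19.2% of all tested genes). The DESeq2 calls over all genes, 441 higher and 328 lower, came without the filter on low counts and give no share to set beside these. Every knockout stood above every control for 8 of the 20 (against 11.8% of all tested genes), and below for 1 (share of all tested genes not counted). Leaving out any single control or knockout 3 ended the call of Kdr (adjusted p by edgeR at most 0.188). Leaving out control 1 or control 2 ended that of Lyve1 (at most 0.0601). In whole embryos fewer cells of a type and less RNA per cell cannot be told apart, and the part of these cell types in the receptor chain levels was not tested.

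**Figure D5:**
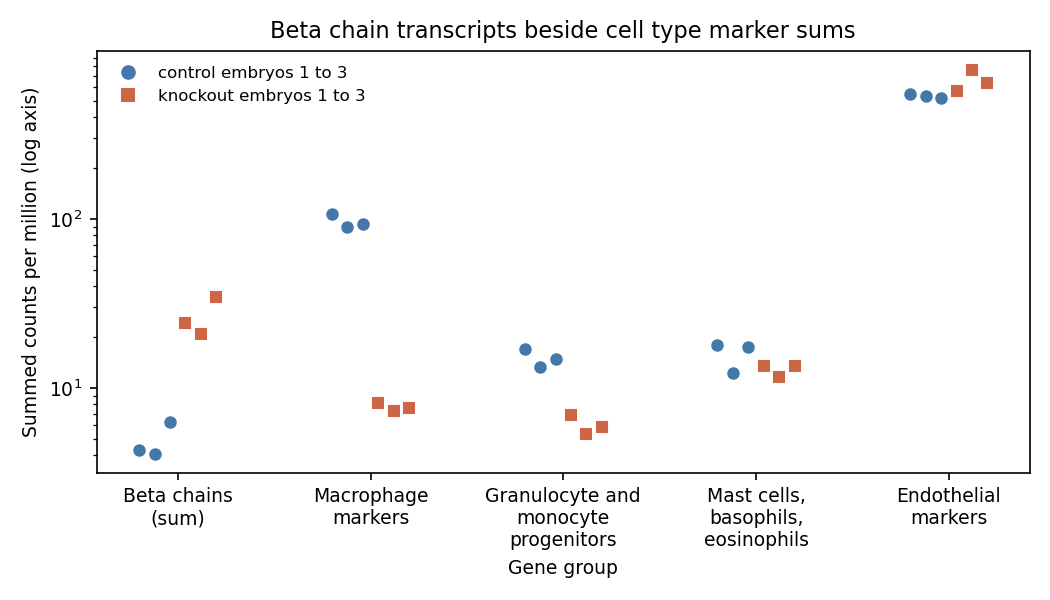
Summed CPM on a log axis for the beta chains and for marker lists of cell types, with the embryos of each group in order from left to right. The beta chains are higher in the knockouts (20.7 to 34.6 against 4.08 to 6.25), the macrophage markers lower (7.31 to 8.13 against 89.0 to 107).

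Genes next to the beta chains on chromosome 15 overlapped between the groups. Of the 3 neighbours on either side in the RefSeq order, Ift27, Ncf4, Tst and Mpst were tested, and Pvalb and Tex33 were under the filter. None of the tested neighbours was called by edgeR, and their groups all overlapped. Ncf4, a subunit of the phagocyte oxidase beside Csf2rb2, had 72, 83 and 90 counts in controls and 125, 61 and 76 in knockouts, a log2 fold change of 0.19 ± 0.29 (SE). Mpst, a sulfurtransferase gene on the side of Csf2rb, had a log2 fold change of 0.27 ± 0.12 (SE) and an edgeR adjusted p of 0.267. Tst was at -0.16 and Ift27 at -0.17.

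Other genes were ranked by how near their profile over the 6 embryos lay to that of the summed beta chains. Likeness was measured as the root mean square difference between centred log2(CPM + 0.5) profiles, over the 13595 tested genes outside the pair that averaged 1 CPM or more. The nearest was the pseudogene Nlrp5-ps, with a difference of 0.398 from the summed beta chains and 66, 54 and 89 counts in controls against 209, 158 and 298 in knockouts. Like the beta chains it was highest in knockout 3 and lowest in knockout 2 among the knockouts. Vegfa, the vascular endothelial growth factor gene, followed at 0.492, the peptide transporter gene Slc15a2 and Atp10d at 0.513 each, and the imprinted long RNA gene Meg3 at 0.563. Meg3 overlapped between groups, at 195 CPM in knockout 2 against 202 CPM in control 3. Csf2ra stood at place 56 in this order, with a difference of 0.728, and Il3ra at place 208 with 0.861. Profiles were centred but not scaled, so the order depends also on the size of the difference between groups, on which the members were chosen. These values describe the 6 libraries and are no test.

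The labels were checked on the targeted genes and on tissue markers. H3f3a had 9685 to 10775 counts in controls and 1744 to 1996 in knockouts, and H3f3b 18942 to 21379 against 11431 to 13626. Trp53, null in both groups, gave 64 to 88 counts in controls and 86 to 148 in knockouts. All 18 markers of the tissues of a whole embryo passed the filter. Of these 1 was called higher by edgeR, Nppa, a heart hormone gene, at a log2 fold change of 1.56 with an edgeR adjusted p of 0.0138, and DESeq2 called 2 higher and 1 lower. Leaving out control 2 or control 3 ended the call of Nppa (adjusted p by edgeR at most 0.0804). Libraries held 24952853 to 30461689 counts in genes.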

How the data were processed

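RNA of 6 whole embryos was sequenced from stranded polyadenylated libraries, per the labels' protocols. The authors deposited whole-number counts per gene symbol, without normalization. Trimmomatic, TopHat2, Bowtie2, HTSeq and the mm9 build appear in the submitters' processing notes. Which gene annotation and strand setting the counting used is not given in the sources used here. The 5 closing rows that name no gene, 29.5% to 39.8% of alignments per library, stayed out of library sizes and tests. Groups came from the sample titles.

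The quasi-likelihood F test of edgeR 4.0.16 (R 4.3.3) was run with robust priors and TMM scaling on genes that passed filterByExpr (minimum count 10, minimum total 15). Group was the only term. P-values were adjusted by Benjamini-Hochberg over 15075 genes, and under 0.05 was called. Standard errors were derived from the fold change and its F statistic. The summed beta chains were fitted as 1 row in place of 2. The procedure was tested on simulated data. Every pair of libraries differed by far more than sampling noise (chi-square of 13 or more per degree of freedom), so none was a repeat deposit. The most alike pair crossed the groups, control 3 and knockout 1 at 13. Pairs of controls lay at 22.3 to 38.6 and pairs of knockouts at 17.5 to 48.1.

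The members and gene lists were chosen with earlier results of these data known. Genes were named by rule: members, ligands, Il5ra, targeted genes, neighbours, the 5 nearest profiles, and from each list up to 4 called genes, or otherwise 2, with the smallest p. Genes named outside this rule are given as chosen after their values were seen. The 3 motifs were chosen with the promoters in view. Transcripts are Csf2rb-206, Csf2rb2-201, Csf2ra-201 and Il3ra-203 of GENCODE M21, aligned with Biopython 1.88. Alternatives were other scalings, DESeq2 1.42.0, no filter, no robust prior, a replicate block, a sum of the knockout 2 and 3 libraries, whose names share a code, and each library left out. DESeq2 was fitted without the filter on low counts, and its share of calls among the 15075 tested genes was not counted.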

Additional observations from a re-analysis of the deposited data

How the results depend on the processing

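The log2 fold changes of the 4 receptor chains and of the summed beta chains moved by less than the spread between replicates under every alternative run. The sum lay between 2.42 and 2.50 under other scalings, filters and tools. Without single libraries, Csf2rb lay between 2.07 and 2.46, Csf2rb2 between 2.74 and 3.44, Csf2ra between 0.89 and 1.17 and Il3ra between 0.74 and 1.02. The share of Csf2rb2 in the pair was 10.2 percentage points higher in the knockouts, and 7.8 to 11.9 without single libraries. Counts of called genes depended on the setting. Of all genes, 83 were higher and 144 lower, against 441 and 328 by DESeq2, and 7 to 1159 and 53 to 504 without single libraries. Without a filter 144 were higher, and 270 with knockouts 2 and 3 summed. With the replicate block 333 were higher and 256 lower. Same-numbered embryos did not all deviate together (correlations of -0.10, 0.227 and 0.308 for numbers 1 to 3). Control 2 went best with knockout 2, but control 1 also went best with knockout 2 (0.261) and control 3 with knockout 1 (0.39). The numbers were therefore not taken as pairs. With the replicate block the SE of the summed beta chains was 0.11, against 0.23 without it, and that of Csf2rb2 0.20 against 0.36. Of the pathway genes 1 was higher by DESeq2, and 0 to 1 higher and 0 to 3 lower without single libraries, with 0 lower without control 1 or control 3. The low counts of Csf2rb2 in the controls, 17 to 31, limit the precision of its fold change.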

Other observations

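Lists of other cell types gave few calls by edgeR. Of 15 tested genes of blood stem and progenitor cells 1 was lower by edgeR, Ptprc, the common leukocyte antigen gene. Ptprc is also on the macrophage list and counted among the lower genes there. It fell by 5.19 on the log2 scale with an edgeR adjusted p of 0.000831 and kept its call in all 6 fits that left out a library. DESeq2 called 3 of the stem and progenitor list lower, and the median of that list was -0.09. Of 14 tested megakaryocyte and platelet genes 1 was called by edgeR, Vwf, the von Willebrand factor gene that endothelium also makes, which rose from 20.8 ± 3.84 to 38.5 ± 4.14 CPM (SD, n = 3). Its log2 fold change was 0.89 with an edgeR adjusted p of 0.0175, and leaving out control 1, control 2 or knockout 3 ended the call (adjusted p by edgeR at most 0.12). DESeq2 called 1 of the list higher and 2 lower, 6 had an unadjusted p under 0.05 (against 19.2% of all tested genes), and the median was -0.60. None of the 17 tested erythroid genes was called by edgeR or DESeq2 and none had an unadjusted p under 0.05, with a median of 0.12. The smallest p-values there belonged to Nfe2, an erythroid and megakaryocyte transcription factor gene, at a log2 fold change of 0.47, and Trim10 at 0.43.

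Genes used in tissue outside the embryo proper, in which Sox2-Cre is not expected to act broadly, were also measured. Not all of them are confined to such tissue, and Afp is also on the list of whole embryo markers. The sums therefore do not measure that tissue alone. Of 16 trophoblast and placenta genes 5 were tested, none was called by edgeR or DESeq2, and 2 had an unadjusted p under 0.05 (against 19.2% of all tested genes). The sum of the 16 was 16.0 to 20.4 CPM in controls and 16.3 to 20.9 CPM in knockouts. Most of it was Hand1, at 9.54 to 13.6 CPM in controls and 11.4 to 16.1 CPM in knockouts. The smallest p-values belonged to Prl3b1, a placental hormone gene, at a log2 fold change of -0.94, and Synb, a syncytin gene, at -0.95. The list of visceral endoderm and yolk sac summed to 219 to 347 CPM in controls and 128 to 252 CPM in knockouts, with overlap. Afp was its largest part, at 126 to 208 CPM in controls and 65.1 to 142 CPM in knockouts. Of 11 tested genes of visceral endoderm and yolk sac 1 was lower by edgeR and by DESeq2, Ttr, the transthyretin gene, at a log2 fold change of -1.69 with an edgeR adjusted p of 0.00886. Its call was lost without control 1 (edgeR adjusted p = 0.0528).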
